A study of Homo sapiens with 28 samples.

Results

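DEAD and DEAH box helicases are enzymes that use ATP to unwind or rearrange RNA and the proteins bound to it, and their genes carry the symbols DDX and DHX. Their transcripts were followed here in a knockdown study that removed, among other factors, 2 members of the family, DDX5 and DDX17. The members described are all genes whose symbol is DDX or DHX followed by digits and at most 1 letter, without DDX5, DDX17 and pseudogenes. The reference annotation holds 52 such genes, of which 48 were measured by a probeset with a single gene symbol, 32 DDX and 16 DHX genes, among 18417 genes in all. DDX11, DDX18, DDX39B and DDX47 had no probeset of their own.

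HEK293 cells, a line from human embryonic kidney, received lentiviral vectors in which the U6 promoter drives a short hairpin RNA (shRNA), and RNA was taken after 6 days in medium with 2 μg/ml puromycin. Hairpins were directed against CLP1, CPSF6, DDX5, DDX17, HNRNPL, PABPC1, PARP1, PRKDC or SUPT16H, and a hairpin against the bacterial gene lacZ was the control (Ctr). The first of 2 array series held 3 hairpins each for CLP1, DDX5, DDX17 and HNRNPL, 1 CPSF6 array and 1 lacZ array, and the second 3 hairpins each for PABPC1, PARP1, PRKDC and SUPT16H and 2 lacZ arrays. All 28 arrays carried infected and selected cells of the same line, and no allele or agent other than the hairpin differed between groups by the labels.

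The family is best known for work on RNA at every stage of its life. DEAH box members such as DHX8, DHX15, DHX16 and DHX38 remodel the spliceosome, DDX3X, DDX6, DDX19A, DDX19B and DDX39A act on mRNA on its way out of the nucleus, in translation and in decay, and many others, DDX21 and DDX52 among them, help to assemble ribosomal subunits in the nucleolus. A few recognise foreign RNA or are written by interferon (DHX58, DDX60), and some are used mainly in germ cells (DDX4, DDX25, DDX43, DDX53). Many members work only with a partner protein that switches their ATPase on or off.

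Levels are log2 probe intensities, and a difference is a difference of such levels. A member was called where the adjusted p was under 0.05 in limma, with the Benjamini-Hochberg adjustment over all 18417 genes of a comparison. The targeted gene was lower than in lacZ in 25 of 25 knockdown arrays, by -0.52 to -2.41 on the log2 scale. The lacZ array of the first series and 1 lacZ array of the second held nearly the same values apart from their scale, with an SD over genes of 0.0634 between them against 0.232 to 0.239 for the other lacZ pairs and 0.164 to 0.758 between hairpins of 1 gene. They were therefore taken as 1 array normalised within each series, so that 1 lacZ array stands behind the first series and 2 behind the second. All 8 comparisons with lacZ thus share control arrays, and the comparisons of a knockdown with the mean of the other 3 knockdowns of its series do not use them. What the p-values measure is the spread between these arrays only, part of which may be technical, and the number of arrays limits the precision. All 7 markers of the HEK293 line lay above the level under which 95% of 341 olfactory receptor genes fell (log2 4.92), as did 2 of 3 blood cell markers (CD3E, CD14), 2 of 4 fibroblast markers (COL1A1, COL1A2) and 1 of 4 endothelial markers (CDH5). PTPRC of blood cells, DCN and LUM of fibroblasts, and PECAM1, KDR and TEK of endothelium lay under it. In bulk RNA, fewer cells with a transcript and less of it per cell cannot be told apart.

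Most helicase genes were not called in most knockdowns, and the calls that were made stood chiefly in the PRKDC knockdown. PRKDC encodes DNA-PKcs, a kinase of DNA double-strand break repair. In its comparison with lacZ 11 members fell and 2 rose, so that 27.1% of the members were called where 35.7% of all genes were (16.1% lower and 19.6% higher). SUPT16H encodes a subunit of the histone chaperone FACT. In its knockdown 2 members fell and 1 rose against lacZ, where 9.53% of all genes were called (5.76% lower and 3.77% higher). In PARP1 knockdown cells 1 member fell against lacZ, with 5.44% of all genes called (2.98% lower). Neither of these shares of members (6.25% and 2.08%) stood above the share of all genes.

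Against lacZ, limma called 0 members in the other 5 knockdowns. For CLP1 the share of all genes called was 0.956% and 3 members had an unadjusted p under 0.05. For DDX5 it was 0.842%, also with 3 such members, for DDX17 2.77% with 4, for HNRNPL 1.84% with 3 and for PABPC1 5.76% with 6. Median member differences from lacZ ran from -0.23 in SUPT16H and -0.21 in DDX5 to -0.02 in CLP1, and the median over all genes from -0.01 to 0.10. In the DDX5 and the SUPT16H knockdowns 35 of 48 members lay below lacZ, in PRKDC and PARP1 32, in DDX17 and PABPC1 26, and in CLP1 and HNRNPL 25.

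Against the other knockdowns of the same series, a comparison that leaves the few lacZ arrays out, 1 member was called. DHX32 was higher in CLP1 knockdown cells, where 0.722% of all genes were called (0.483% higher). The counts in limma were 0 members for DDX5 (0.038% of all genes called, 11 members with an unadjusted p under 0.05), DDX17 (0.874%, 7 members), HNRNPL (0.0977%, 5 members), PABPC1 (0.0869%, 14 members), PARP1 (0.554%, 4 members), PRKDC (0.0869%, 10 members) and SUPT16H (0.0109%, 6 members). The moderated F test among the 4 knockdowns of a series called DHX32 alone in the first series (1.11% of all genes called) and 0 members in the second by limma (0.939%, 14 members with an unadjusted p under 0.05). Members whose 3 hairpins did not overlap the 9 other knockdown arrays of their series numbered 1 in CLP1 (2.99% of all genes), 0 in DDX5 (0.331%), 3 in DDX17 (2.84%), 0 in HNRNPL (1.31%), 0 in PABPC1 (2.14%), 2 in PARP1 (6.07%), 3 in PRKDC (9.61%) and 0 in SUPT16H (1.82%). Each of these shares of all genes is the background for the count beside it.

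**Figure D1:**
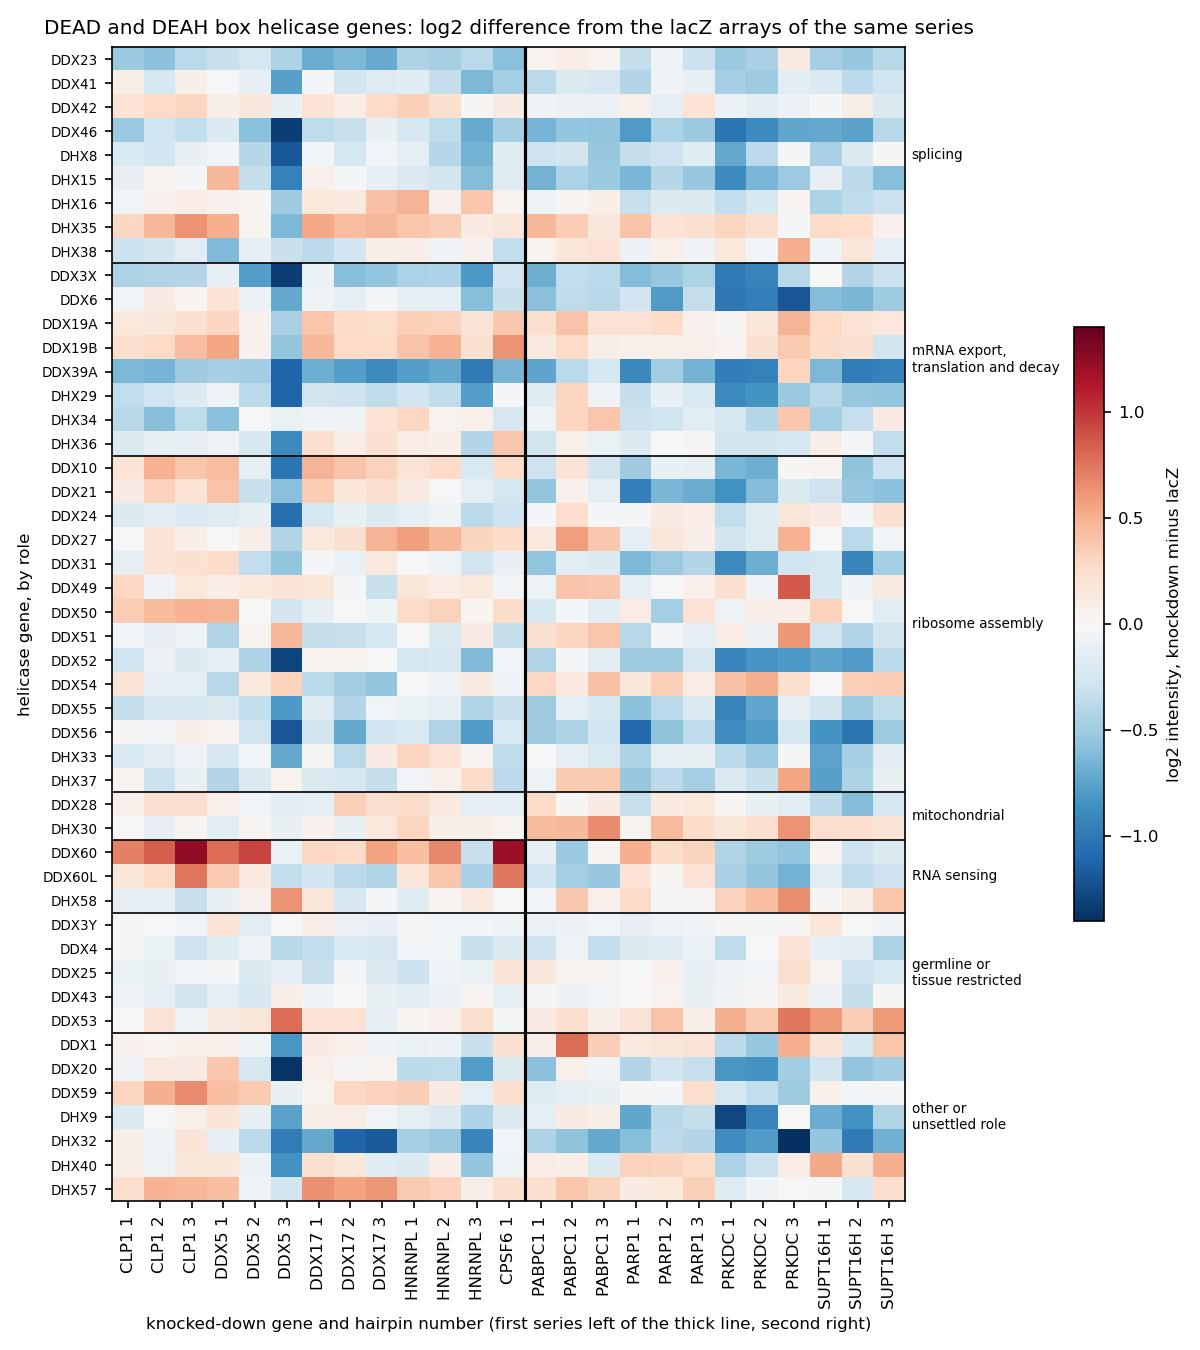
Log2 intensity of each of the 48 helicase genes (rows, grouped by role) on each knockdown array (columns, gene and hairpin number) minus the lacZ level of the same series; blue is lower and red higher than lacZ. DDX39A and DDX46 are blue along nearly the whole row. DHX32 is blue in 23 of 25 columns (11.2% of all genes lay below lacZ in 23 or more) and palest in CLP1 and CPSF6. DDX60 is red in most of the first series, and the column of DDX5 hairpin 3 is blue for 41 of 48 genes.

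Single arrays differed in how far the whole family moved, and these values stand beside every result below. On the array of DDX5 hairpin 3 the median member was -0.53 below lacZ and 41 of 48 members lay under it, against 0.02 and -0.09 on the arrays of hairpins 1 and 2. HNRNPL hairpin 3 gave -0.17, against -0.02 and -0.04 for hairpins 1 and 2. In PRKDC it was the reverse, with -0.35 and -0.33 for hairpins 1 and 2 and 0.01 for hairpin 3. SUPT16H hairpins 1 to 3 gave -0.11, -0.34 and -0.22, and PARP1 hairpins 1 to 3 gave -0.23, -0.06 and -0.10. The median of 176 small nucleolar RNA (snoRNA) genes was 0.85 and 0.90 above lacZ on the arrays of DDX5 hairpin 3 and HNRNPL hairpin 3, and 0.81 on that of DDX17 hairpin 2, whose helicase median was -0.04. On the other knockdown arrays the snoRNA median lay between -0.10 and 0.53. Within that range it was 0.48, 0.53 and 0.28 with PRKDC hairpins 1 to 3 and 0.49, 0.49 and 0.10 with SUPT16H hairpins 1 to 3. Whether RNA quality or recovery of short RNAs has a part in the helicase values was not tested.

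**Figure D2:**
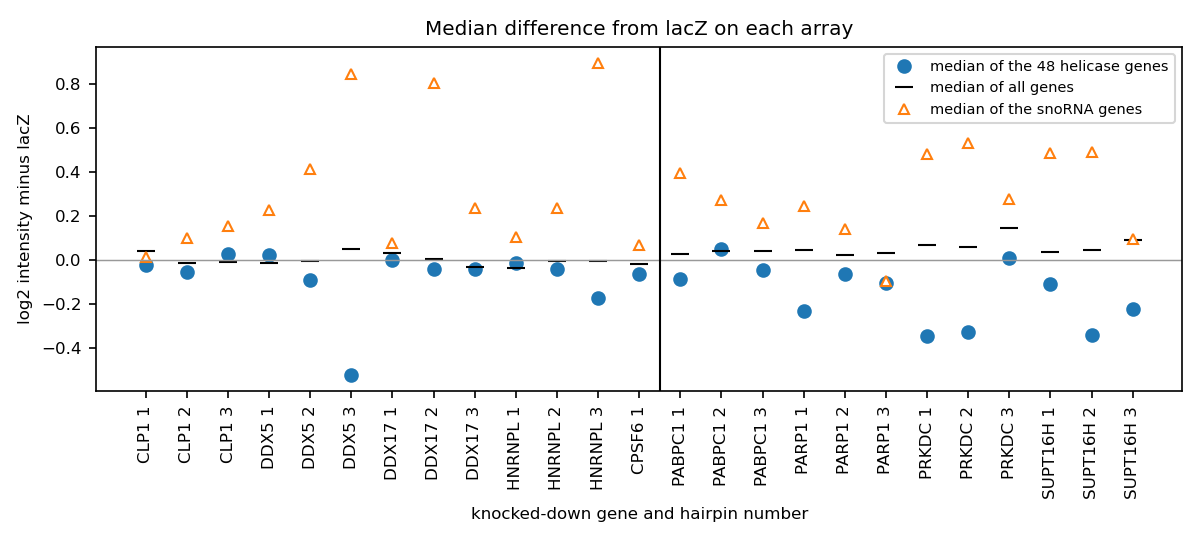
Median log2 difference from lacZ on each knockdown array, for the 48 helicase genes (filled circles), all genes (bars) and 176 snoRNA genes (open triangles); the vertical line parts the first from the second series. The helicase median is lowest on the array of DDX5 hairpin 3 (-0.53) and lies near 0 on most others, and the median of all genes stays within 0.15 of 0.

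Splicing helicases. Of 9 members that act in the spliceosome 2 fell in the PRKDC knockdown against lacZ (16.1% of all genes fell) and none was called elsewhere by limma. Mean log2 levels over the 28 arrays, which join series normalised apart, were 8.08 for DDX23, 8.07 for DDX41, 9.25 for DDX42, 9.09 for DDX46, 8.52 for DHX8, 9.34 for DHX15, 7.09 for DHX16, 6.68 for DHX35 and 6.77 for DHX38. DDX46 (PRP5), which acts when the U2 snRNP joins the branch site, was below lacZ in 25 of 25 knockdown arrays, as were 5.41% of all genes. All arrays of a series are set against the same lacZ values, so these counts are not independent, here and for the members below. Its log2 level was 9.40 and 9.37 on the lacZ arrays of the second series and 8.37, 8.51 and 8.66 with the PRKDC hairpins. All 3 lay below both lacZ arrays, a fall by 0.87 ± 0.22 (SE, adjusted p = 0.0073, limma) to 54.6% of the lacZ intensity. The share of all genes with all 3 hairpins on 1 side of both lacZ arrays is not given, here and below. In PABPC1 knockdown cells the difference was -0.58 ± 0.22 (adjusted p = 0.11) and in DDX5 knockdown cells -0.70 ± 0.28 (adjusted p = 0.31).

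DHX15, which takes apart spliceosomes and released introns together with G-patch proteins, varied most among the splicing members in the first series (SD over knockdown arrays 0.354). Its log2 level was 10.36, 9.57 and 8.96 with DDX5 hairpins 1 to 3, so that a single knockdown held both the highest and the lowest value of the first series. Over the other knockdowns of that series it lay between 9.30 and 9.98, with 9.91 on the lacZ array. The second series gave 9.51 and 9.25 for lacZ, 8.72 to 8.94 for PABPC1, 8.75 to 8.98 for PARP1, 8.79 to 9.27 for SUPT16H and 8.50, 8.74 and 8.87 for PRKDC. DHX15 fell by 0.68 ± 0.25 in PRKDC against lacZ (adjusted p = 0.037, limma). This call was lost in 5 of 12 alternatives, among them quantile normalization (-0.35, adjusted p = 0.084). The rest of these left out either lacZ array or PRKDC hairpin 1 or 2. SUPT16H hairpin 1 gave the only knockdown value of that series above the lower lacZ array.

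DDX23 (PRP28), which displaces U1 from the 5′ splice site, was within the first series lowest in DDX17 knockdown cells. There its levels were 7.83, 7.89 and 7.83, below all 9 other knockdown arrays of the first series (7.96 to 8.29) and below lacZ (8.53). The difference from lacZ was -0.68 ± 0.20 with an adjusted p of 0.072, and 2.84% of all genes likewise had DDX17 hairpins that did not overlap the other 9 arrays. DHX35 stood the other way, above lacZ in 23 of 25 knockdown arrays, as were 10.5% of all genes in 23 or more. It differed from lacZ by 0.48 ± 0.26 in DDX17 (adjusted p = 0.42) and by 0.46 ± 0.26 in CLP1 (adjusted p = 0.65). DHX16, which acts in the first step of splicing, differed by 0.31 ± 0.21 in HNRNPL (adjusted p = 0.61), and DDX41 by -0.22 ± 0.14 in HNRNPL against the other knockdowns (adjusted p = 0.71).

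Helicases of mRNA export, translation and decay. Of 8 members 3 fell in PRKDC (16.1% of all genes fell) and 1 in SUPT16H knockdown cells (5.76%) against lacZ. Mean log2 levels were 9.68 for DDX3X, 9.32 for DDX6, 8.31 for DDX19A, 7.85 for DDX19B, 8.38 for DDX39A, 7.95 for DHX29, 6.75 for DHX34 and 8.40 for DHX36. DDX6, which represses translation and joins mRNA decapping in P-bodies, had a log2 level of 9.47 and 9.42 with lacZ and of 8.44, 8.48 and 8.24 with the PRKDC hairpins. All 3 PRKDC arrays lay below the 9 other knockdown arrays of the series (8.65 to 9.18), as they did for 9.61% of all genes. Against lacZ DDX6 fell by 1.05 ± 0.21 (adjusted p = 0.0016, limma) to 48.2% of the lacZ intensity, and it kept its call in all 12 alternatives tried. Against the other knockdowns the difference was -0.56 ± 0.15 with an adjusted p of 0.11.

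DDX3X, a helicase of translation initiation on structured mRNAs, was likewise below lacZ in 25 of 25 arrays, as were 5.41% of all genes. In the second series lacZ gave 10.13 and 9.70, and PRKDC 8.93, 8.98 and 9.52, all below both. DDX3X fell by 0.77 ± 0.25 there (adjusted p = 0.024, limma). DHX29, which helps the small ribosomal subunit to scan, had levels of 8.09 and 7.91 with lacZ and of 7.11, 7.16 and 7.48 in PRKDC, a fall by 0.75 ± 0.22 (adjusted p = 0.014). Its levels with PABPC1 hairpins were 7.83, 8.30 and 7.95, and the difference of PABPC1 from the other knockdowns was 0.51 ± 0.16 (adjusted p = 0.19).

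DDX39A, a paralog of the mRNA export helicase DDX39B, lay below lacZ in 24 of 25 knockdown arrays, where 8.51% of all genes did so in 24 or more. Its SD over knockdown arrays was the largest of this group in the second series (0.386) and the smallest in the first (0.202). In the first series its log2 level was 9.17 with lacZ and 8.06 to 8.71 on the 13 knockdown arrays. In the second it was 8.78 and 8.80 with lacZ, 8.05 to 8.55 in PABPC1, 7.89 to 8.30 in PARP1, and 8.16, 7.81 and 7.84 in SUPT16H. The PRKDC hairpins gave 7.82, 7.84 and 9.09, so that hairpin 3 alone was above lacZ. DDX39A fell by 0.85 ± 0.27 in SUPT16H (adjusted p = 0.044, limma), a call that was lost with quantile normalization. The differences in HNRNPL (-0.83 ± 0.34, adjusted p = 0.26) and DDX17 (-0.78 ± 0.34, adjusted p = 0.26), set against a single lacZ array, and in PARP1 (-0.69 ± 0.27, adjusted p = 0.14) did not pass. DDX39A and DDX39B are close in sequence, and how far their probes are shared was not tested.

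The export helicases DDX19A and DDX19B, neighbours on chromosome 16 in the GRCh38.p14 annotation and near copies of each other, lay above lacZ in 24 and 23 of 25 arrays (10.5% of all genes in 23 or more) and passed the test in no comparison of limma. The second probeset of DDX19A differed from the one used by -0.98 in mean level, with an SD of 0.155 over arrays. DHX34, a factor of nonsense-mediated decay, differed by -0.45 ± 0.27 in CLP1 against lacZ (adjusted p = 0.70). For DHX36, which resolves G-quadruplexes, the difference of DDX17 from the other knockdowns was 0.38 ± 0.15 (adjusted p = 0.27).

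Helicases of ribosome assembly. Of 14 members 3 fell in PRKDC (16.1% of all genes fell) and 1 in PARP1 (2.98%) against lacZ. Mean log2 levels were 7.84 for DDX10, 9.79 for DDX21, 9.45 for DDX24, 7.83 for DDX27, 6.48 for DDX31, 7.06 for DDX49, 9.53 for DDX50, 6.52 for DDX51, 9.19 for DDX52, 7.80 for DDX54, 7.89 for DDX55, 8.64 for DDX56, 8.60 for DHX33 and 6.70 for DHX37. DDX21, a nucleolar helicase of ribosomal RNA transcription and processing, had log2 levels of 9.84 and 9.75 with lacZ and of 8.84, 9.16 and 9.11 with the PARP1 hairpins. All 3 were below lacZ, and the fall was by 0.76 ± 0.23 (adjusted p = 0.0499, limma) to 58.9% of the lacZ intensity. This call was lost with a pseudocount of 16 (adjusted p = 0.054), without either lacZ array and without each PARP1 hairpin (0.081 to 0.38). DDX21 also lay at 8.95, 9.19 and 9.60 in PRKDC and at 9.50, 9.27 and 9.23 in SUPT16H, and its neighbour and paralog DDX50 passed no test.

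DDX52, which acts in the small subunit processome, was at 9.43 and 9.12 with lacZ and at 8.37, 8.45 and 8.48 in PRKDC, a fall by 0.85 ± 0.23 (adjusted p = 0.010, limma). The PRKDC arrays lay below all 9 others of the series (8.49 to 9.26). In the first series DDX52 was at 9.86, 9.83 and 9.80 with the DDX17 hairpins, above the 9 other knockdown arrays (8.51 to 9.72), with a difference from them of 0.41 ± 0.17 (adjusted p = 0.31). DDX31 fell by 0.62 ± 0.22 (adjusted p = 0.031) and DDX55 by 0.59 ± 0.21 (adjusted p = 0.032) in PRKDC against lacZ. Both are large subunit assembly factors, and on hairpin 3 they were nearer to lacZ (6.25 against 6.55 and 6.51 for DDX31, 7.88 against 8.01 and 7.97 for DDX55).

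DDX10 varied most in this group in the first series (SD over knockdown arrays 0.43). Its first series levels were 8.15 with lacZ, 8.34 to 8.63 in CLP1, 8.57, 8.01 and 7.13 with DDX5 hairpins 1 to 3, 8.47 to 8.63 in DDX17 and 7.93 to 8.43 in HNRNPL. Its second series levels were 7.72 and 7.49 with lacZ, 7.32 to 7.79 in PABPC1, 7.11 to 7.50 in PARP1, 6.92 to 7.62 in PRKDC and 7.04 to 7.65 in SUPT16H. DDX5 hairpin 3 gave the lowest value of the first series, and the 4 knockdowns of the second series overlapped in DDX10. Among the other assembly factors, DDX56 differed from lacZ by -0.79 ± 0.28 in SUPT16H (adjusted p = 0.069) and by -0.67 ± 0.28 in PARP1 (adjusted p = 0.17), DDX27 by 0.45 ± 0.26 in HNRNPL (adjusted p = 0.50), and DDX54 by 0.39 ± 0.19 in PRKDC (adjusted p = 0.097). DDX54 was lower in DDX17 than in the other knockdowns by value (-0.48 ± 0.14, adjusted p = 0.093), and DHX37 stood at 0.51 ± 0.16 in PABPC1 (adjusted p = 0.18) and at -0.38 ± 0.16 in PARP1 (adjusted p = 0.21) against the others. DDX51 was at 6.19, 6.04 and 6.21 in SUPT16H, which differed from the others by -0.43 ± 0.15 (adjusted p = 0.39), and DHX33 was at 9.25, 9.15 and 8.98 in HNRNPL (0.36 ± 0.15, adjusted p = 0.50).

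Mitochondrial helicases. DHX30 and DDX28, which serve the assembly of mitochondrial ribosomes, passed the test in no comparison of limma. Their mean log2 levels were 8.55 and 6.17. DHX30 was above lacZ in 20 of 25 arrays, as were 22.5% of all genes in 20 or more. In PABPC1 it had levels of 8.72, 8.73 and 8.93 against 8.10 and 8.43 with lacZ, a difference of 0.52 ± 0.17 (adjusted p = 0.060). DDX28 was at 5.68, 5.44 and 5.81 in SUPT16H against 5.97 and 6.11 with lacZ. All 3 were below lacZ, and the difference from the other knockdowns was -0.41 ± 0.12 (adjusted p = 0.28). Elsewhere DDX28 lay between 6.16 and 6.64 in the first series and between 5.72 and 6.31 in the second.

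RNA-sensing helicases. DDX60 and DDX60L are paralogs that interferon induces and lie next to each other on chromosome 4, and DHX58 (LGP2) belongs to the RIG-I type of RNA sensors. Their mean log2 levels, 4.70, 4.43 and 5.12, were near those of the olfactory receptor genes (median 4.05, highest 5.74), so that DDX60 and DDX60L could not be set apart from background by their mean level. Of 44 members with a promoter sequence in RefSeq (300 bases around the gene start, GRCh38.p14), 3 held GAAA, any 2 bases and GAAA again on either strand, a core of the interferon-stimulated response element, against 3.57% of 35116 promoters of the same 300 bases. The motif was searched with the values of DDX60 and DDX60L known. DDX60 and DDX60L held it at 2 places each and DHX15 at 1, and the promoter of DHX58 did not hold these letters in this window. The windows below run 5′ to 3′ on the strand of the gene (minus), with the motif in capitals, and a match is a description of the letters only.
DDX60, chr4:168318821-168318850, motif from 88 bases before the gene start: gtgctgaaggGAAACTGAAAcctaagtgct
DDX60, chr4:168318786-168318815, 53 bases before: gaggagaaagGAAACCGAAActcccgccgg
DDX60L, chr4:168480553-168480582, 80 bases before: gaaaactgcgGAAATCGAAAaggcctcgcg
DDX60L, chr4:168480523-168480552, 50 bases before: gtggagaaaaGAAACCGAAActaactccct
DHX15, chr4:24584750-24584779, 215 bases before: aggatagcctGAAATGGAAAgtgaaggcct

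In CLP1 knockdown cells the log2 level of DDX60 was 5.38, 5.51 and 5.92, against 4.67 with lacZ. With the other first series hairpins it was 5.45, 5.61 and 4.57 (DDX5), 4.96, 4.94 and 5.23 (DDX17), 5.10, 5.35 and 4.34 (HNRNPL) and 5.88 (CPSF6). Only the hairpins 3 of DDX5 and HNRNPL were below lacZ. The difference of CLP1 from lacZ was 0.93 ± 0.31 (adjusted p = 0.22) and from the other knockdowns 0.54 ± 0.18 (adjusted p = 0.15), so that DDX60 passed neither test in limma.

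DDX60L was at 4.72 with lacZ, at 4.89, 4.99 and 5.46 in CLP1 and at 4.45, 4.35 and 4.29 in DDX17. The CLP1 and DDX17 arrays, a pair picked with the values known, did not overlap, while DDX5 (4.38 to 5.09) and HNRNPL (4.26 to 5.10) overlapped both. The share of all genes without overlap in this pair is not given here. The difference from the other knockdowns was 0.48 ± 0.14 in CLP1 (adjusted p = 0.099) and -0.51 ± 0.14 in DDX17 (adjusted p = 0.082). Without DDX5 hairpin 3 and HNRNPL hairpin 3, an alternative chosen after the data were seen, DDX60L was called lower in DDX17, where 3.19% of all genes were then called.

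In the second series the means of DDX60 and DDX60L were highest in PARP1 and lowest in PRKDC. DDX60 gave 4.81, 4.56 and 4.61 in PARP1, above the 9 other knockdown arrays (3.75 to 4.35) and the lacZ arrays (4.39 and 4.20), and 3.88, 3.81 and 3.75 in PRKDC. DDX60L gave 4.50, 4.33 and 4.51 in PARP1, also above the 9 others (3.65 to 4.16), and 3.85, 3.77 and 3.65 in PRKDC. For 6.07% of all genes the PARP1 arrays likewise did not overlap the others. Against the other knockdowns PARP1 differed by 0.63 ± 0.18 for DDX60 (adjusted p = 0.10) and by 0.56 ± 0.14 for DDX60L (adjusted p = 0.067). DDX60L fell by 0.56 ± 0.19 in PRKDC against lacZ (adjusted p = 0.031, limma). Its levels in this comparison lay under that of 95% of the olfactory receptor genes.

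DHX58 rose by 0.47 ± 0.18 in PRKDC against lacZ (adjusted p = 0.045, limma), with 5.23, 5.34 and 5.57 against 4.87 and 4.95. Its level in the first series was highest on the array of DDX5 hairpin 3 (5.78) and lay between 4.83 and 5.32 on the other knockdown arrays.

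**Figure D3:**
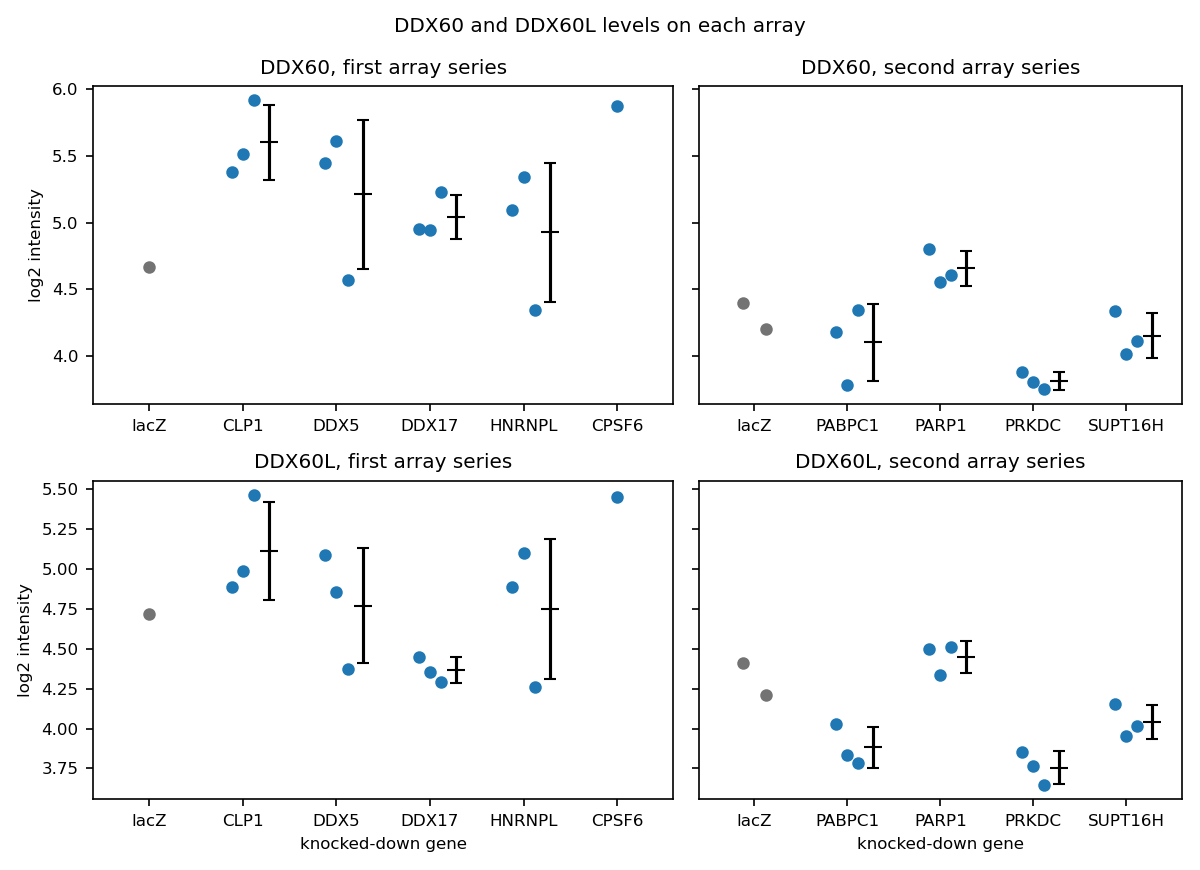
Log2 intensity of DDX60 (top) and DDX60L (bottom) on each array of the first (left) and second (right) series; grey points are lacZ, blue points knockdown arrays, and the black mark is the mean with its SD over 3 hairpins. In the second series the 3 PARP1 points of both genes lie above the other knockdowns, and in the first series DDX60 reaches 5.92 in CLP1 and 5.88 in CPSF6 against 4.67 with lacZ.

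Germ cell and tissue-restricted helicases. DDX4 (VASA, the germ cell marker), DDX25, DDX43 and DDX53 had mean log2 levels of 4.29, 4.86, 4.07 and 4.28, all under the level of 95% of the olfactory receptor genes, and DDX3Y likewise lay under it. DDX53 rose by 0.53 ± 0.16 in PRKDC (adjusted p = 0.015, limma) and by 0.51 ± 0.16 in SUPT16H (adjusted p = 0.041) against lacZ. The call in SUPT16H was lost in 7 of 10 alternatives, among them quantile normalization and a pseudocount of 16. Its levels were 3.97 and 3.86 with lacZ, 4.41, 4.28 and 4.65 in PRKDC and 4.51, 4.26 and 4.51 in SUPT16H. Neither knockdown overlapped lacZ, and the share of all genes that likewise did not is not given here. In PABPC1 (4.0 to 4.15) and PARP1 (4.01 to 4.32) it was above lacZ too. The first series gave 4.21 with lacZ, 4.09 to 4.46 on the knockdown arrays but for DDX5 hairpin 3, and 5.0 on that array. Since DDX53 stood within the range of genes not used in these cells, whether its probes read DDX53 transcript here was not tested.

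Helicases of other or unsettled role. DHX32, a member whose function is not settled, was called in 4 comparisons, more than any other member. These are not independent. CLP1 against the other knockdowns and the F test of the first series use the same arrays, and PRKDC and SUPT16H share their lacZ arrays. The log2 level of DHX32 was 7.93, 7.79 and 8.03 in CLP1 knockdown cells, 7.85 with lacZ and 7.80 in CPSF6. It was 7.13, 6.72 and 6.67 in DDX17, 7.38, 7.32 and 6.92 in HNRNPL and 7.74, 7.47 and 6.87 in DDX5. All 3 CLP1 arrays lay above the 9 other knockdown arrays (6.67 to 7.74), as they lay to 1 side for 2.99% of all genes. CLP1 (7.92 ± 0.12, SD, n = 3) exceeded the mean of the other knockdowns by 0.78 ± 0.16 (SE, adjusted p = 0.021, limma), or 172% of their intensity, and the F test among the 4 knockdowns gave an adjusted p of 0.023.

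From lacZ, CLP1 differed in DHX32 by 0.07 ± 0.28 (adjusted p = 0.99), and all 9 arrays of the other 3 knockdowns lay below lacZ. DDX17 differed from lacZ by -1.0 ± 0.28 with an adjusted p of 0.051 and from the other knockdowns by -0.65 ± 0.16 with an adjusted p of 0.052, both just past the threshold. The call of CLP1 against the others was lost with quantile normalization over all arrays (0.62, adjusted p = 0.060), with the first series fitted alone (adjusted p = 0.19) and without any 1 CLP1 hairpin (0.73 to 0.85, adjusted p = 0.098 to 0.24). Without DDX5 hairpin 3 and HNRNPL hairpin 3 the difference was 0.65 (adjusted p = 0.020).

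In the second series DHX32 was below lacZ (7.54 and 7.28) on all 12 knockdown arrays. It was at 6.98, 6.85 and 6.70 in PABPC1, at 6.82, 7.04 and 7.00 in PARP1, at 6.54, 6.62 and 6.01 in PRKDC and at 6.86, 6.42 and 6.74 in SUPT16H. It fell by 1.02 ± 0.22 in PRKDC (adjusted p = 0.0031, limma) to 49.3% of the lacZ intensity and by 0.74 ± 0.22 in SUPT16H (adjusted p = 0.039). The differences in PABPC1 (-0.57 ± 0.22, adjusted p = 0.12) and PARP1 (-0.45 ± 0.22, adjusted p = 0.26) did not pass, and no knockdown of the second series differed from the others in DHX32 by the test.

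**Figure D4:**
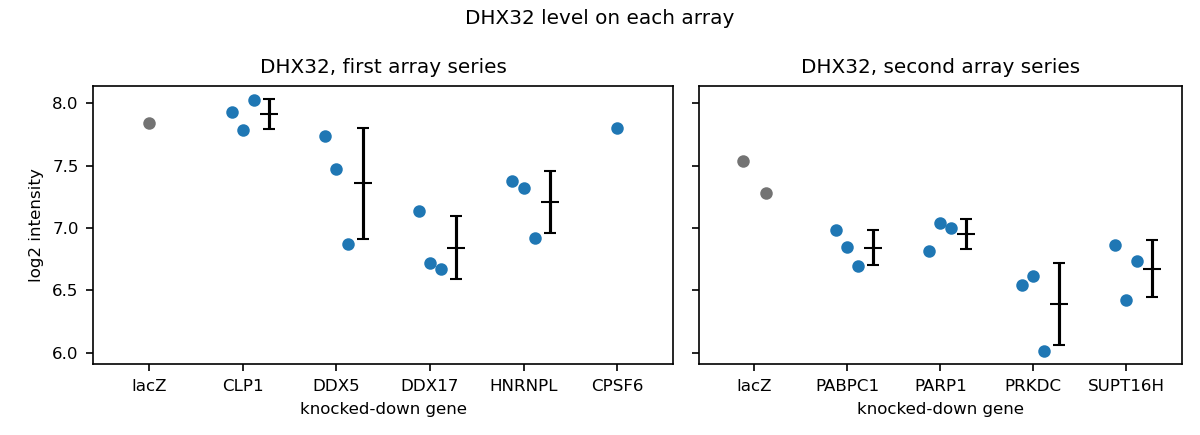
Log2 intensity of DHX32 on each array of the first (left) and second (right) series; grey points are lacZ, blue points knockdown arrays, and the black mark is the mean with its SD over 3 hairpins. CLP1, CPSF6 and lacZ lie between 7.79 and 8.03 in the first series, DDX17 between 6.67 and 7.13, and all 12 knockdown arrays of the second series lie below both lacZ arrays.

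DHX9 (RNA helicase A), which binds double-stranded RNA and bridges transcription complexes, fell by 0.73 ± 0.26 in PRKDC against lacZ (adjusted p = 0.036, limma). Its PRKDC levels were 7.95, 8.30 and 9.22, and hairpin 3 lay between the lacZ arrays (9.21 and 9.23). Without hairpin 3 the difference was -1.10 (adjusted p = 0.0030) and without hairpin 1 it was -0.46 (adjusted p = 0.18), so that single hairpins set its size. DHX9 was also at 9.08, 9.34 and 9.30 in PABPC1, which differed from the other knockdowns by 0.64 ± 0.19 (adjusted p = 0.17).

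DDX20, the Gemin3 subunit of the SMN complex that builds snRNPs, had the largest spread in the first series among members (SD 0.48). Its levels were 7.92 with lacZ, 7.88 to 8.06 in CLP1, 8.30, 7.69 and 6.55 in DDX5, 7.94 to 8.00 in DDX17 and 7.14 to 7.57 in HNRNPL. In the second series it was at 7.53 and 7.35 with lacZ, 6.85 to 7.50 in PABPC1, 7.03 to 7.17 in PARP1, 6.61 to 6.95 in PRKDC and 6.89 to 7.17 in SUPT16H. It was called in no comparison. DHX57 was at 7.69, 7.61 and 7.66 in DDX17, above the 9 other knockdown arrays of the first series (6.78 to 7.53) and lacZ (7.05), with a difference from the others of 0.38 ± 0.12 (adjusted p = 0.17). DDX59 differed by 0.49 ± 0.21 in CLP1 (adjusted p = 0.44), and its PRKDC arrays (5.29 to 5.57) lay below the 9 others of their series (5.60 to 6.03). Mean log2 levels in this group were 9.21 for DDX1, 7.41 for DDX20, 5.97 for DDX59, 9.15 for DHX9, 7.11 for DHX32, 7.79 for DHX40 and 7.06 for DHX57. DDX1 differed by 0.40 ± 0.26 in PABPC1 (adjusted p = 0.33) and DHX40 by 0.42 ± 0.23 in SUPT16H (adjusted p = 0.22).

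The 13 calls in the PRKDC knockdown were spread over 6 of the 7 role groups. They numbered 3 falls among 14 assembly factors, 3 among 8 export, translation and decay factors, 2 among 9 splicing factors and 2 among 7 of other role. There were also a fall and a rise among 3 RNA sensors and a rise among 5 germ cell and tissue-restricted members. Of all genes 16.1% fell and 19.6% rose. The median difference of the members was -0.19 and that of all genes 0.10. Of these calls, DDX6 alone held without either lacZ array and without each hairpin. DDX46, DDX52, DHX29 and DHX32 lost theirs only without the lacZ array that both series share, which left 1 called member (2.7% of all genes). With quantile normalization DHX15 (-0.35, adjusted p = 0.084), DHX9 (-0.41, 0.11), DDX55 (-0.37, 0.096) and DHX58 (0.31, 0.11) lost theirs. DDX60L lost its call in 6 of 11 alternatives, among them a pseudocount of 16. Without the other lacZ array 6 members were called (15.1%), without PRKDC hairpin 1 there were 8 (23.7%), without hairpin 2 there were 7 (31.2%) and without hairpin 3 there were 14 (26.6%). Against the other knockdowns, where 0 members passed in the joint fit, 10 did when the second series was fitted alone (9 lower and 1 higher, 17.6% of all genes called), led by DDX60L, DDX60, DDX6 and DHX29.

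**Figure D5:**
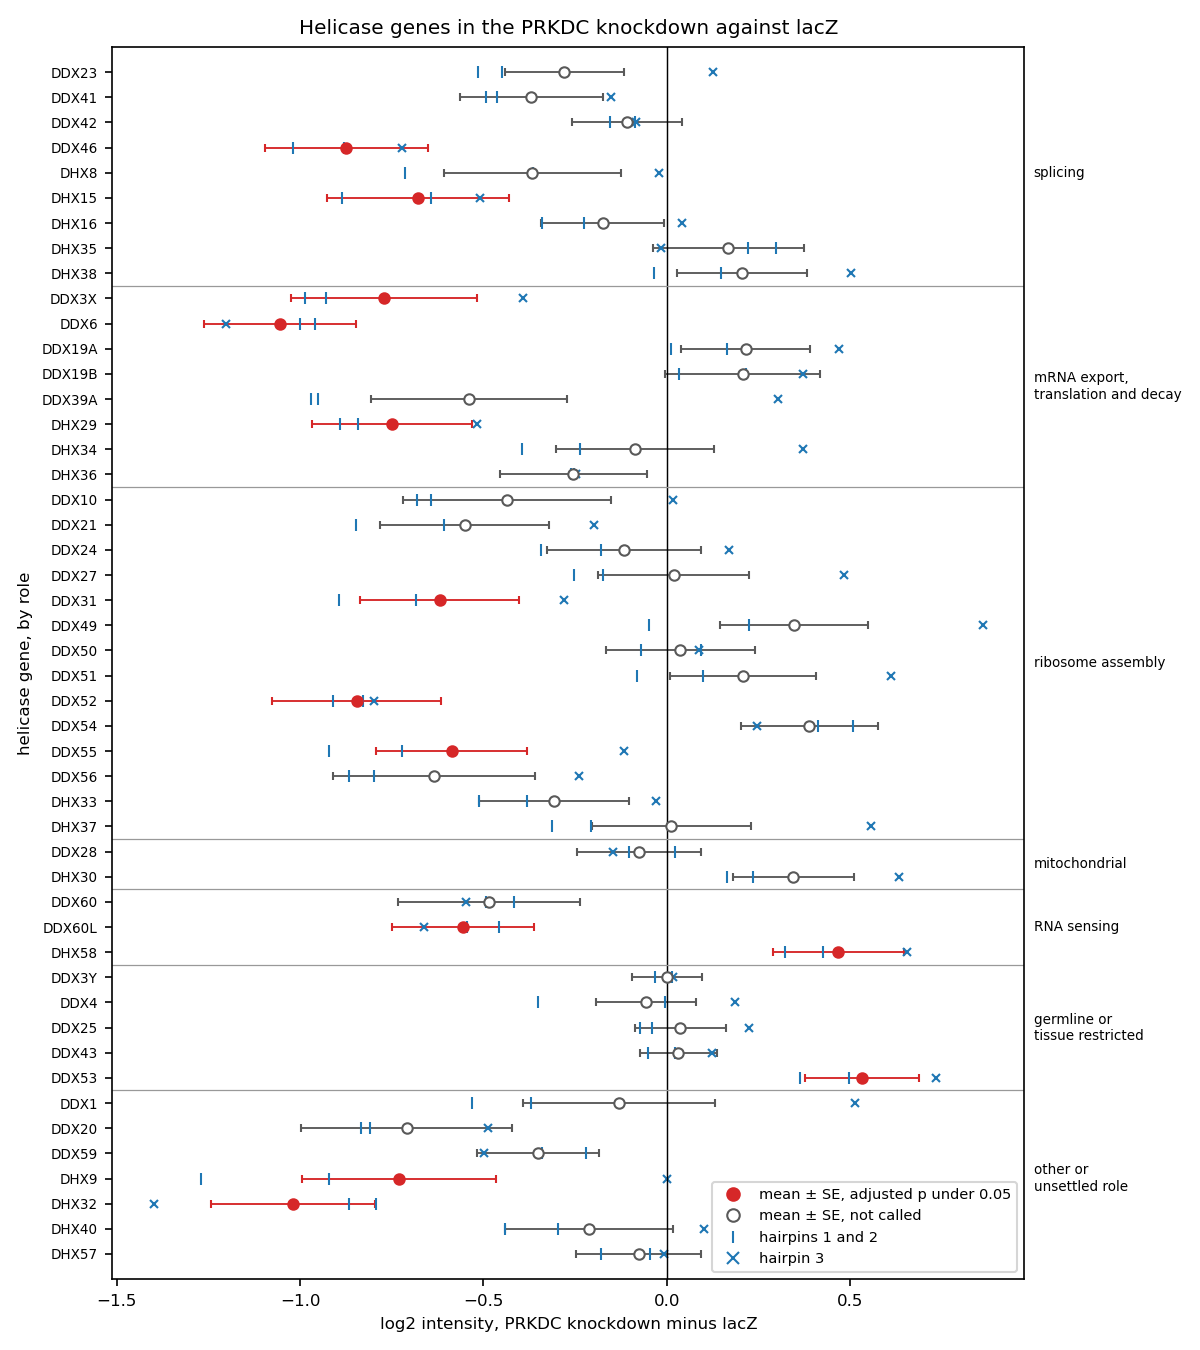
Difference in log2 intensity of PRKDC knockdown from lacZ for the 48 helicase genes, by role; circles are means with SE from limma (filled red where the adjusted p was under 0.05), blue bars the arrays of hairpins 1 and 2 and crosses that of hairpin 3. DDX6 and DHX32 have the lowest means (-1.05 and -1.02), while DDX39A, DHX9 and DDX49 have hairpin 3 far from the other 2.

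In SUPT16H knockdown cells the 3 calls (DDX39A and DHX32 lower, DDX53 higher) all ended without the shared lacZ array (0.966% of all genes called), without the other lacZ array (2.88%) and without SUPT16H hairpin 2 (3.46%) or 3 (5.86%), where 0 members were called by limma. When the second series was fitted alone 8 members were called in SUPT16H (23.6% of all genes) and 5 in PABPC1 (18.3%), DDX46 and DHX32 among the lower ones in both.

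The knockdowns of DDX5 and DDX17, themselves DEAD box genes, were compared with each other. DDX5 was at 9.72, 9.60 and 9.26 with its own hairpins against 10.57 with lacZ, and at 10.82, 10.60 and 10.74 in DDX17 knockdown cells. DDX17 was at 9.40, 9.59 and 9.75 with its own hairpins against 10.91, and at 11.01, 10.64 and 10.24 in DDX5 knockdown cells. In limma 0 members differed between the 2 knockdowns (0.494% of all genes called, 13 members with an unadjusted p under 0.05). Among members that went the same way with all 3 hairpins, the largest differences of DDX5 from DDX17 were those of DDX52 (-0.64 ± 0.21, adjusted p = 0.19), DHX57 (-0.57 ± 0.15, adjusted p = 0.11), DHX36 (-0.57 ± 0.18, adjusted p = 0.18), DHX32 (0.52 ± 0.20, adjusted p = 0.29), DDX54 (0.50 ± 0.17, adjusted p = 0.21) and DDX60L (0.41 ± 0.17, adjusted p = 0.34). DDX10 (-0.64 ± 0.25, adjusted p = 0.30) and DHX35 (-0.51 ± 0.18, adjusted p = 0.25) were lower in DDX5 by value, with 2 of 3 hairpins on that side. Without DDX5 hairpin 1 the count rose to 15 members (13.5% of all genes), 13 of them lower in DDX5, and against the other knockdowns from 0 to 16 (17.2%). That setting leaves hairpins 2 and 3, the latter being the array on which 41 members lay below lacZ. Without DDX5 hairpin 3 and HNRNPL hairpin 3 the count was 2, DDX60L and DHX32, both higher in DDX5 (0.82% of all genes).

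CPSF6 had 1 array and no test. Of the 48 members 5 (10.4%) lay outside the range of the 12 other knockdown arrays of the first series, against 17.9% of all genes. All 5 were above that range, DDX1 at 9.63 (others up to 9.53), DDX19B at 8.48 (8.41), DDX25 at 5.27 (5.07), DHX29 at 8.50 (8.49) and DHX36 at 9.09 (8.95). CPSF6 is a subunit of the cleavage factor CFIm, and without a second array the spread of these values is unknown.

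Proteins that switch helicases on or off, or share complexes with them, were looked at as 49 measured partners. Among them were G-patch proteins, MIF4G-domain scaffolds and subunits of the exon junction, TREX and SMN complexes. Against lacZ, 16 fell and 1 rose in PRKDC, 5 fell in PABPC1, 5 in SUPT16H, 4 in PARP1, 1 each in CLP1, DDX5 and HNRNPL, and 2 fell and 1 rose in DDX17. Of all genes 35.7% were called in PRKDC (16.1% lower), 9.53% in SUPT16H (5.76% lower) and 5.44% in PARP1 (2.98% lower). In either direction 5.76% were called in PABPC1, 0.956% in CLP1, 0.842% in DDX5, 1.84% in HNRNPL and 2.77% in DDX17. UPF2, the MIF4G-domain partner of the helicase UPF1 in nonsense-mediated decay, was lower by log2 differences of -1.20 ± 0.27 in PABPC1 (adjusted p = 0.011), -1.14 ± 0.27 in PARP1 (0.013), -1.38 ± 0.27 in PRKDC (0.0016) and -1.33 ± 0.27 in SUPT16H (0.0040). These 4 comparisons share their lacZ arrays. EDC3, a decapping factor that binds DDX6, fell in the same comparisons (-0.68 to -0.81), and PATL1, another DDX6 partner, in PRKDC (-1.07 ± 0.25, adjusted p = 0.0048). SUGP2, a G-patch protein, was lower in DDX5 (-0.89 ± 0.21, adjusted p = 0.034), DDX17 (-1.10 ± 0.21, 0.0028) HNRNPL (-0.85 ± 0.21, 0.030), PABPC1 (-0.66 ± 0.16, 0.017) and PRKDC (-0.56 ± 0.16, 0.013), and CHERP in CLP1 (-0.79 ± 0.19, 0.047) and DDX17 (-0.74 ± 0.19, 0.038). MAGOH, of the exon junction core around EIF4A3, rose by 0.88 ± 0.24 in DDX17 (0.045). The calls in CLP1, DDX5, DDX17 and HNRNPL rest on a single lacZ array, whose own spread is not measured there.

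Against the other knockdowns 1 partner passed in limma. CMTR1, the cap methyltransferase that binds DHX15 through its G-patch, differed by -0.62 ± 0.12 in DDX17 knockdown cells (adjusted p = 0.010), and it passed the F test of the first series (adjusted p = 0.020). Of 20 further helicases outside the DDX and DHX names, 6 fell and 3 rose in PRKDC, 2 fell in SUPT16H and 1 fell and 1 rose in PARP1 against lacZ. Not all of these act on RNA: RECQL and HFM1, helicases of DNA, were among the falls in PRKDC, and RECQL among those in SUPT16H. Of all genes 35.7% were called in PRKDC (16.1% lower and 19.6% higher), 9.53% in SUPT16H (5.76% lower) and 5.44% in PARP1 (2.98% lower). SUPV3L1, the helicase of the mitochondrial degradosome, was lower in PRKDC (-1.39 ± 0.29, adjusted p = 0.0022), SUPT16H (-1.05 ± 0.29, 0.025) and PARP1 (-1.04 ± 0.29, 0.033).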

How the data were processed

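RNA of HEK293 knockdown cells was labelled by random priming and hybridised to whole-transcript human gene arrays. The deposited table held linear probeset intensities, and per the labels the authors normalised each array series apart by robust multi-array averaging (RMA) in aroma.affymetrix. Intensities ran from 4.25 to 18486, with array medians of 61.5 to 74.0 in the first and 54.5 to 58.3 in the second series. Of 33252 probesets, 19460 had 1 gene symbol, 1754 several and 12038 none in the platform annotation, and the probeset with the highest mean stood for each of 769 genes with more than 1. All 18417 genes entered 1 limma fit (version 3.58.1, R 4.3.3; lmFit, eBayes with trend) of log2 intensities with 11 group means, 17 residual and 8 prior degrees of freedom, and two-sided p-values were adjusted by Benjamini-Hochberg. The 2 deposited lacZ values of the shared array entered within their own series. The fit was tested on simulated data with independent noise on each array, so without a shared lacZ array or hairpins that stand apart. Against lacZ it recovered 61% (CLP1) and 79% (PABPC1) of added log2 shifts of 1, and 100% of shifts of 2 in both. Against the other knockdowns it recovered 99% and 95% of the shifts of 1. Tables and plots were made in Python 3.11.15 with numpy 2.4.6, pandas 2.3.3 and matplotlib 3.10.9. Genes named are members called anywhere, the 3 highest and 3 lowest per comparison that went the same way with all 3 hairpins, the most variable member of each role, members outside the range of the other arrays, and up to 4 called partners or other helicases. Members and lists were chosen with earlier results of these data known. Alternatives were quantile normalization, median centring, a pseudocount of 16, leaving out genes with a mean log2 under 6, the mean of all probesets, each series alone, a replicate block, another use of the lacZ arrays, and leaving out arrays.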

Additional observations from a re-analysis of the deposited data

How the results depend on the processing

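Of 1217 single-gene values recomputed under the alternatives, 1099 kept their direction and their side of the threshold, 76 lost a call, 42 gained one and 0 were reversed. Of 142 counts of called members under alternatives other than leaving out 1 array, 113 stayed within 1.5 times. The share of all genes called stands in parentheses after each count. With the 2 hairpins 3 that stood apart (DDX5, HNRNPL) left out, 1 member was called in DDX5 against lacZ (1.37%), 2 in DDX17 against the other knockdowns (3.19%), 2 in DDX5 against DDX17 (0.82%) and 2 by the first F test (2.81%). A pseudocount of 16 gave 1 in DDX17 against lacZ (3.23%), 0 in PARP1 against lacZ (4.97%) and 1 in DDX17 against the others (0.988%). Leaving out low genes gave 1 in DDX17 (3.63%) and 1 in PABPC1 (8.37%) against lacZ. A second lacZ array for the first series was also constructed. It was the unshared lacZ array of the second series, shifted per gene by the difference between the 2 values of the shared array. With it, 2 were called in DDX17 (4.72%) and 1 in HNRNPL (2.18%) against lacZ. Quantile normalization gave 2 in PABPC1 (7.33%) and 5 in SUPT16H (10.1%) against lacZ. In SUPT16H DHX32 kept its call there, while DDX39A and DDX53 lost theirs. Against the others it gave 0 in CLP1 (0.375%), 2 in PABPC1 (0.918%) and 1 in PRKDC (2.11%), and by the F tests 0 (0.771%) and 3 (3.86%). Centring on the median gave 1 in PABPC1 against lacZ (5.87%). With each series fitted alone there were 5 in PABPC1 (18.3%), 2 in PARP1 (11.6%) and 8 in SUPT16H (23.6%) against lacZ, 0 in CLP1 (0.0217%), 2 in PARP1 (7.16%) and 10 in PRKDC (17.6%) against the others, and 0 (0.206%) and 9 (15.8%) by the F tests. With PRKDC hairpin 3 out of the whole fit 3 were called in PABPC1 against the others (1.68%). The cause of these shifts was not tested.

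Leaving out 1 array at a time, with the share of all genes at the highest count, gave 0 to 2 called members in DDX5 (3.4%), 0 to 1 in DDX17 (3.01%), 0 in PARP1 (1.06% to 3.3%), 1 to 14 in PRKDC (26.6%) and 0 to 2 in SUPT16H (6.46%) against lacZ. It gave 0 in CLP1 (0.0434% to 0.19%) and 0 to 16 in DDX5 (17.2%) against the others, 0 to 15 in DDX5 against DDX17 (13.5%), and 0 to 12 (15.2%) and 0 to 2 (1.74%) by the F tests. Where an arm then held 1 array, that array was assumed to vary like the other groups.

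The hairpin numbers were not taken to pair the arrays: of 36 same-numbered pairs 15 had deviations that correlated above 0.1, over a range from -0.58 to 0.83. All 3 pairs of DDX5 with HNRNPL did (0.63, 0.23 and 0.83). With the replicate block 1 member (DHX32) was called in DDX17 against the other knockdowns, and no other count of called members moved by over 1.5 times. The number of arrays and the small distance from background of DDX60, DDX60L, DDX53 and DHX58 limit these values.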

Other observations

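RNA sensors and their adaptor outside the DDX and DHX names were looked at beside DDX60 and DHX58. RIGI, the sensor once named DDX58, fell by 0.52 ± 0.18 in PRKDC against lacZ (adjusted p = 0.029, limma) and differed by -0.52 ± 0.18 in SUPT16H (adjusted p = 0.063). Its levels in PRKDC (4.57, 4.62 and 4.71) lay under the level of 95% of the olfactory receptor genes (4.92). IFIH1 (MDA5) differed by 0.58 ± 0.22 in DDX17 against lacZ (adjusted p = 0.18), and MAVS, the adaptor of both sensors, passed no test.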
